A study of Heterocephalus glaber with 3 samples.

Results

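The genes described are 45 ribosomal protein genes of the naked mole-rat (Heterocephalus glaber), measured by droplet single-cell RNA sequencing in lung tumours. They are the features whose symbol has the form of a cytosolic ribosomal protein name, 45 of 23189 features, of which 11578 carry a symbol. By name 23 belong to the large subunit, 19 to the small subunit and 3 (RPLP0, RPLP1 and RPLP2) to the acidic stalk of the large subunit. Another 35 symbols of this form in the reference gene table had no feature of that symbol and were not analysed here, and features without a symbol may include further copies. The tumours came from 3 animals in 1 group, all collected 15 weeks after infection with a CRISPR adenovirus whose edits include Rb loss and an Eml4-Alk inversion. The tumours were cut from the surrounding lung by hand, the labels name no untreated animal, and they do not say which cells took up the virus. Each comparison is therefore between cell classes of the same 3 animals.

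Ribosomal proteins join ribosomal RNA in the nucleolus and cytoplasm to form the subunits that translate mRNA. Their mRNAs are among the most abundant in most cells and begin with a 5′ terminal oligopyrimidine (TOP) tract, through which mTOR signalling and LARP1 regulate their translation and stability together. The share of a cell's mRNA that they take up is known to differ between cell types, and lymphocytes are known for a high one.

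The libraries held 76093932, 86575320 and 91949365 unique molecular identifiers (UMIs, counted mRNA molecules) in animals 1, 2 and 3, and 7929, 8891 and 7779 cells were kept. The shallowest deposited barcode had 1298, 1150 and 2174 UMIs in animals 1, 2 and 3, so shallow cells of animal 3 were not analysed here. The 45 genes took 14.2%, 16.1% and 13.9% of the UMIs of features with a symbol over all deposited barcodes of animals 1, 2 and 3. Cells fell into 28 clusters, of which 3 stayed unnamed, and 9 classes with enough cells in every animal were compared. The clustering left these genes out. An epithelial-like cluster led by SFTPC, SCGB3A2 and AGER, markers of distal lung, was present in all 3 animals. Clusters with bone matrix, osteoclast or basal epithelial markers came almost wholly from animal 2 and were not compared. The immunoglobulin kappa gene IGKC made up on average 0.418% to 3.11% of named UMIs in the 8 classes other than plasma-like cells. In endothelial-like cells it made up 0.445%, 0.444% and 6.38% in animals 1, 2 and 3, a mean of 2.42% with animal 3 and 0.445% without it. The part of RNA carried over between droplets in the shares below was not tested.

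The genes differed in level over a wide range. Of the 8 highest 7 are given here, in mean UMI counts scaled to a common library total (CPM, over all kept cells) ± SD over 3 animals: RPLP0 (4358 ± 393), RPLP1 (4150 ± 297), RPS15A (4134 ± 293), RPLP2 (4073 ± 231), RPL23 (3736 ± 204), RPL28 (3610 ± 117) and RPL8 (3312 ± 134). All 3 stalk genes were therefore among the highest 4. The 4 lowest included RPL15 (526 ± 60.2 CPM), RPL7L1 (8.26 ± 4.73 CPM) and RPL3L (1.72 ± 0.628 CPM). RPL7L1 and RPL3L are paralogues of RPL7 and RPL3, and RPL3L is known in human and mouse for its expression in heart and skeletal muscle. Of the 45 genes 40 had a UMI in over 90% of kept cells, whereas RPL3L had one in 1.54%. A 3′ assay counts molecules and is not scaled by gene length, and how reads shared with pseudogenes or near-identical copies were assigned is not given in the sources used here.

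Lymphocytes gave the largest part of their mRNA to ribosomal proteins. The share of named UMIs, in animals 1, 2 and 3, was 24.1%, 23.7% and 26.6% in T or NK-like cells, 24.80% ± 1.57 (SD, n = 3). In B-like cells it was 23.6%, 23.4% and 25.9%, 24.3% ± 1.39, from 536, 717 and 66 cells. In dendritic-like cells it was 17.7%, 17.7% and 22.3%, 19.2% ± 2.69. T or NK-like and B-like cells overlapped with each other and lay above the other 7 classes in every animal.

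Fibroblast or mural-like cells had 17.0%, 18.5% and 18.1% of named UMIs in these genes, 17.9% ± 0.780 (SD, n = 3). Endothelial-like cells had 15.7%, 14.6% and 15.2%, 15.2% ± 0.571. This class held only 199 cells. Its cluster led by FCN3 and ESAM held 28, 85 and 26 cells of animals 1, 2 and 3, and its cluster led by MMRN1 and STAB1 held 25, 16 and 19. Epithelial-like cells had 14.1%, 13.4% and 16.1%, 14.5% ± 1.41. Monocyte or macrophage-like cells had 13.3%, 14.3% and 15.5%, 14.4% ± 1.14. The endothelial-like, epithelial-like and macrophage-like ranges overlapped, and each of these neighbours in the order stood in that order in 2 of 3 animals. Dendritic-like and fibroblast-like cells also overlapped, with dendritic-like cells higher in 2 of 3 animals.

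Neutrophil-like and plasma-like cells had the lowest shares. Neutrophil-like cells had 9.56%, 9.29% and 15.0% of named UMIs in animals 1, 2 and 3, 11.3% ± 3.23 (SD, n = 3). Animal 3 stood above the other two in this class. Its analysed neutrophil-like cells also had more UMIs, with a median of 3016 against 1564 and 1371 in animals 1 and 2. The shallowest deposited barcode of animal 3 had 2174 UMIs, above both those medians, so shallower neutrophil-like cells of animal 3 were not analysed. The part of this cut in the difference was not tested. Plasma-like cells had 8.02%, 9.63% and 6.44%, 8.03% ± 1.59, which overlapped with the neutrophil-like range. T or NK-like cells had 2.28 ± 0.442 times the share of neutrophil-like cells and 1.73 ± 0.0751 times that of macrophage-like cells (SD, n = 3).

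The low share of plasma-like cells went with 1 abundant transcript. IGKC, the constant region of the kappa light chain, made up 61.6%, 54.6% and 67.7% of their named UMIs in animals 1, 2 and 3. With IGKC left out of the denominator in every class, ribosomal proteins took 20.9%, 21.2% and 19.9% in plasma-like cells, 20.7% ± 0.658 (SD, n = 3), against 25.1% ± 1.67 in B-like cells and 24.97% ± 1.59 in T or NK-like cells. On that denominator, which counts only features with a symbol, only B-like and T or NK-like cells had a higher mean than plasma-like cells among the 9 classes. With all UMIs as denominator and IGKC kept, plasma-like cells had 4.90%. IGKC had a mean of 375820 CPM of all UMIs in these cells. The share without IGKC was not computed on the denominator of all UMIs, so this rank is not known to hold there.

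**Figure D1:**
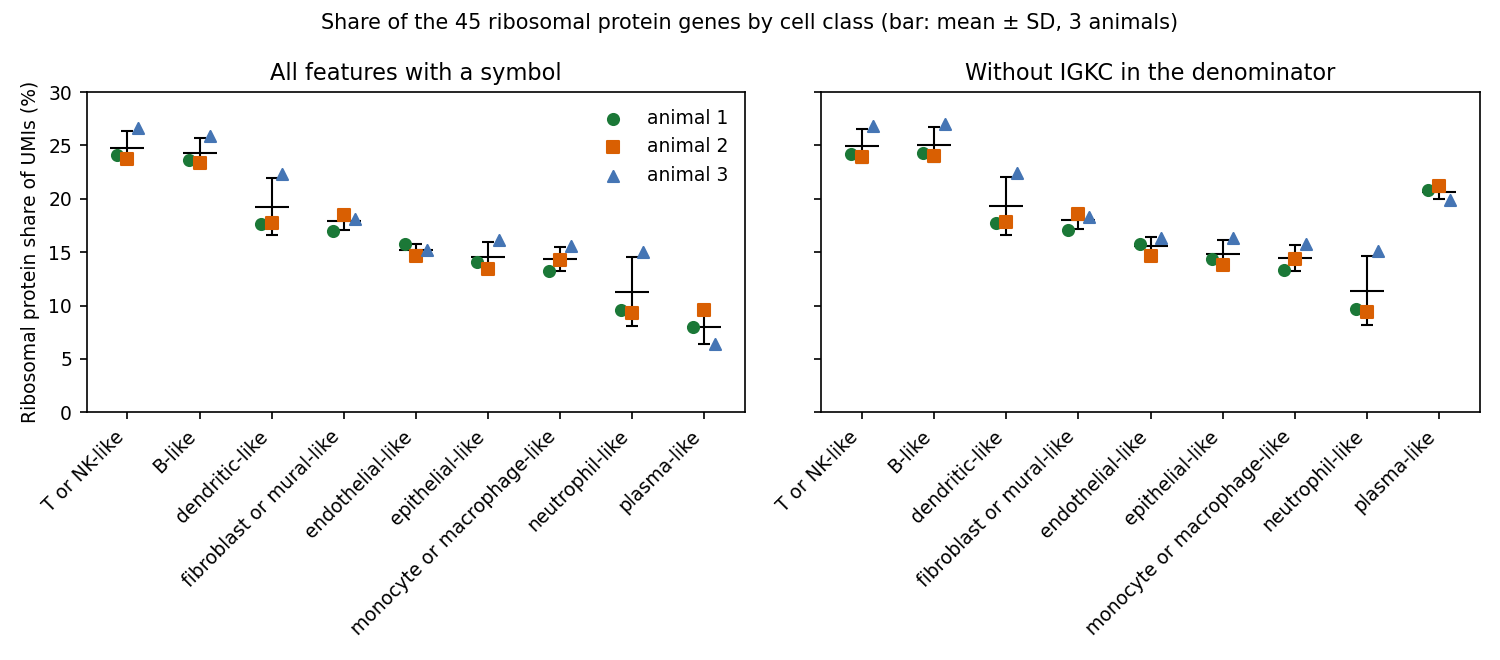
The vertical axis is the percentage of UMIs taken by the 45 ribosomal protein genes, with each animal as a point and the mean ± SD as a bar, for 9 cell classes. On the left all features with a symbol are the denominator and plasma-like cells are lowest at 8.03%, whereas on the right IGKC is left out and they stand at 20.7%.

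A share is not an amount per cell. Fibroblast or mural-like cells carried 1698 ± 206 ribosomal protein UMIs per cell, the most of the 9 classes, against 656 ± 52.4 in T or NK-like cells and 390 ± 128 in B-like cells (SD, n = 3). Neutrophil-like cells carried the fewest, 103, 77.9 and 279 in animals 1, 2 and 3, with a mean of 153 ± 110 over all of them and of 90.4 without animal 3. No barcode of animal 3 under 2174 UMIs was available. Plasma-like cells carried 749 ± 218. The total UMIs per cell differed too, 14590 ± 2427 in fibroblast or mural-like cells and 2482 ± 641 in B-like cells. The median of single T or NK-like cells was 25.5% (10th to 90th percentile, 17.8% to 32.9%), and that of plasma-like cells 7.43% (2.53% to 20.8%).

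Depth moved with the share in some classes. Cells of each class and animal were split at their median depth. In epithelial-like cells the deeper ones had 15.2% and the shallower ones 11.5% on average, and the deeper ones were higher in 3 of 3 animals. In neutrophil-like cells the deeper ones had 12.3% and the shallower ones 9.23%, again higher in 3 of 3 animals. In T or NK-like cells the deeper ones were lower in 3 of 3 animals, 24.3% against 26.2% in the shallower ones. Clusters within the epithelial-like and T or NK-like classes differed in depth and in share (below), so the split can also divide clusters. The epithelial-like cluster led by SFTPC had a median of 7070 UMIs, and the one led by genes of ciliated cells 4709. The part of this mix was not tested. The part of depth in the differences between classes was not tested by this split.

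Within T or NK-like cells the cluster led by CD40LG, IL7R and ICOS, genes of helper T cells, had 27.5% ± 0.380 of its named UMIs in ribosomal proteins (SD, n = 3). The cluster led by TNFRSF4 and FOXP3, genes of regulatory T cells, had 26.4% ± 1.04. The cluster led by GZMA and NKG7, genes of cytotoxic cells, had 25.3% ± 1.71. The cluster that paired cytotoxic genes with the cell cycle genes TOP2A, CENPF and NUSAP1 had 21.8% ± 1.21 and was the lowest of the 4 in every animal. Its cells had a median of 10086 UMIs, against 2245 in the CD40LG cluster.

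Macrophage-like clusters spread as widely. The cluster led by KCNJ2 and VCAN, the second a proteoglycan gene of blood monocytes, had 19.4%, 17.5% and 21.5% in animals 1, 2 and 3. The cluster led by IDO1, P2RY13 and CXCL11, of which IDO1 and CXCL11 are induced by interferon, had 12.1%, 12.8% and 13.9%. The cluster led by CYP7A1, TBXAS1 and GPNMB had 12.1%, 14.0% and 13.9%. The VCAN cluster was the highest of the 5 in every animal. It had the lowest median depth, 4190 UMIs, against 6576 in the IDO1 cluster and 15000 in the CYP7A1 cluster. The mix of clusters differed by animal. The IDO1 cluster held 834, 994 and 53 cells of animals 1, 2 and 3. The cluster led by MMP7 and FBP1, with a share of 15.6% ± 1.03, held 390, 154 and 1245. The part of this mix in the class shares was not tested.

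**Figure D2:**
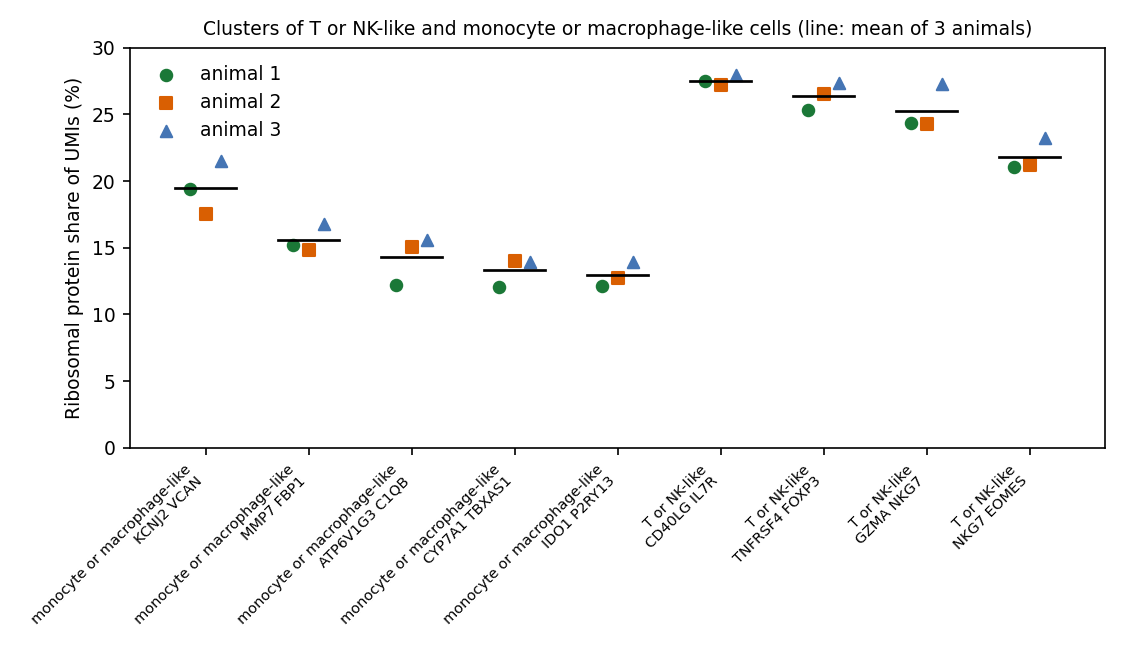
The vertical axis is the ribosomal protein percentage of named UMIs in each cluster of macrophage-like and T or NK-like cells, with a point per animal, a line at the mean and 2 leading genes under each cluster. The VCAN cluster lies at 17.5% to 21.5% and the other macrophage-like clusters below it, and the cycling cluster led by NKG7 and EOMES lies lowest among the T or NK-like clusters.

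The epithelial-like cluster led by SFTPC, a surfactant protein gene of alveolar type II cells, had 15.2% ± 1.23 of named UMIs in ribosomal proteins, and the one led by genes of ciliated cells (TPPP3, CAPS, CFAP126) had 10.6% ± 0.989 (SD, n = 3). The smaller plasma-like cluster had 14.2% ± 0.619, against 6.80% ± 1.03 in the larger one, and IGKC made up 39.7% and 67.3% of their named UMIs in that order.

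Gene by gene, 42 of 45 members were higher in T or NK-like cells than the mean of the other 8 classes, and 0 were lower, in edgeR's quasi-likelihood test on counts summed per animal and class with the animal as a block (Benjamini-Hochberg adjusted p under 0.05). Of all 12895 features tested 27.1% were higher there. The members' median log2 fold change was 0.56, and that of all features 0.02. RPL15 (1.18 ± 0.08, SE, adjusted p = 1.42e-11), RPL22L1 (0.91 ± 0.10) and RPS7 (0.83 ± 0.08) rose the most, whereas RPS6 (0.31 ± 0.09), RPL24 (0.33 ± 0.08) and RPL31 (0.40 ± 0.09) rose the least of the called members. RPS6 is the ribosomal protein that S6 kinases phosphorylate.

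In B-like cells 42 of 45 members were higher and 0 lower, where 17.1% of all features were higher, with a median of 0.58 against -0.10 over all features. RPS28 (0.87 ± 0.09, SE, edgeR adjusted p = 2.43e-08) and RPL22L1 (0.78 ± 0.10) were among the members that rose the most. RPLP1 (0.22 ± 0.08), RPL11 (0.35 ± 0.09) and RPS6 (0.36 ± 0.09) rose least, and RPLP0 did not pass the test. RPL11 is also known for binding MDM2 when ribosome assembly fails.

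In plasma-like cells 40 of 45 members were higher, where 24.6% of all features were higher, and 0 lower, where 21.3% were lower, with a median of 0.64 against -0.03. RPLP2 (1.26 ± 0.09, SE, edgeR adjusted p = 4.06e-12) and RPL22L1 (1.19 ± 0.10) were among those that rose the most. RPS3 (0.25 ± 0.09), RPS6 (0.31 ± 0.09) and RPL35A (0.33 ± 0.08) rose the least. These values rest on the TMM scaling, which trims features with extreme ratios such as IGKC. With library size alone 0 members were higher and 45 lower, where 80.4% of all features were lower. The members' median was then -1.10 and that of all features -1.78. Among cells of 3000 to 8000 UMIs 5 of 44 members were higher, where 9.73% of all features were higher, and 0 lower.

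Neutrophil-like cells had 43 of 45 members lower and 0 higher, where 19.2% of all features were lower, with a median of -0.81 against -0.21. RPL22L1 (-1.59 ± 0.13, SE, edgeR adjusted p = 1.26e-10) and RPL3 (-1.18 ± 0.11), a core protein of the peptidyl transferase region, were among those that fell the most. RPS29 (-0.34 ± 0.10), RPS27 (-0.52 ± 0.09) and RPLP2 (-0.55 ± 0.10) fell the least, and RPLP1 did not pass the test.

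Endothelial-like cells had 42 members lower and 0 higher, where 16.3% of all features were lower, with a median of -0.59 against -0.12. RPLP1 (-1.11 ± 0.09, SE, edgeR adjusted p = 6.12e-11), RPS10 (-0.87 ± 0.10) and RPS7 (-0.85 ± 0.10) fell the most, and RPL34 (-0.23 ± 0.09), RPS3A (-0.39 ± 0.10) and RPL11 (-0.39 ± 0.10) the least. In epithelial-like cells 38 members were lower and 0 higher, where 22.6% of all features were lower, with a median of -0.36 against -0.02. RPLP2 (-0.77 ± 0.10) and RPL19 (-0.60 ± 0.10) were among those that fell the most there, and RPL7 (-0.25 ± 0.10), RPL26 (-0.26 ± 0.09) and RPL3 (-0.27 ± 0.10) fell the least. With library size alone in place of TMM 3 members were higher and 1 lower in endothelial-like cells, where 32.5% of all features were higher and 3.72% lower. In epithelial-like cells 1 was then higher and 2 lower, where 41.2% of all features were higher and 8.83% lower. The epithelial-like count of 38 was 11 without animal 1 and 10 without animal 2, where 1276 of 13255 and 1646 of 12760 features were lower.

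Macrophage-like, dendritic-like and fibroblast or mural-like cells lay nearer the average. In macrophage-like cells 16 members were lower and 0 higher, where 18.3% of all features were lower, with RPL22L1 (-0.53 ± 0.11, SE, edgeR adjusted p = 0.000366), RPS3A (-0.50 ± 0.09) and RPL15 (-0.42 ± 0.10) lowest, and RPL28, RPL26 and RPL8 between -0.23 and -0.24 the least changed of the called members. That count was 6 without animal 1, where 1518 of 13255 features were lower. In dendritic-like cells 10 members were higher, where 21.8% of all features were higher, and 1 was lower, where 16.8% were lower. The highest were RPL3L (1.67 ± 0.41), RPS10 (0.51 ± 0.08) and RPLP0 (0.48 ± 0.11), and RPL22L1 was the lower one (-0.40 ± 0.11). The higher count was 6 without animal 1 and 5 without animal 2, where 1735 of 13255 and 1953 of 12760 features were higher.

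In fibroblast or mural-like cells 9 members were higher, where 34.1% of all features were higher, and 5 lower, where 22.5% were lower. RPS6 (0.40 ± 0.09, SE), RPL22L1 (0.39 ± 0.11) and RPS3A (0.36 ± 0.09) were highest, and RPS29 (-0.50 ± 0.10) and RPLP2 (-0.39 ± 0.10) were among the lowest in edgeR's test at adjusted p under 0.05. The higher count was 2 without animal 1, 3 without animal 2 and 14 without animal 3. In these fits 3721 of 13255, 4155 of 12760 and 4144 of 13014 features were higher. With library size alone 32 members were higher and 0 lower in fibroblast or mural-like cells, where 48.9% of all features were higher. In dendritic-like cells 31 were then higher and 0 lower, where 30.8% of all features were higher.

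The scaling moves all features of a class by about the same amount, so the members' distance from the median of all features changes little with it by construction. Relative to the median of all features, the members' median in log2 was 0.54 with TMM and 0.53 with library size alone in T or NK-like cells, 0.68 and 0.70 in B-like cells, and 0.67 and 0.68 in plasma-like cells. It was -0.60 and -0.58 in neutrophil-like cells, -0.47 and -0.48 in endothelial-like cells, and -0.35 and -0.36 in epithelial-like cells. In macrophage-like cells it was -0.22 and -0.24, in dendritic-like cells 0.16 and 0.16, and in fibroblast or mural-like cells 0.00 and -0.01. Among cells of 3000 to 8000 UMIs, with TMM, this distance was 0.64 in T or NK-like, 0.75 in B-like and 0.27 in plasma-like cells, and -0.50 in neutrophil-like, -0.56 in endothelial-like and -0.52 in epithelial-like cells. It was -0.18 in macrophage-like, 0.14 in dendritic-like and 0.16 in fibroblast or mural-like cells at that depth.

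**Figure D3:**
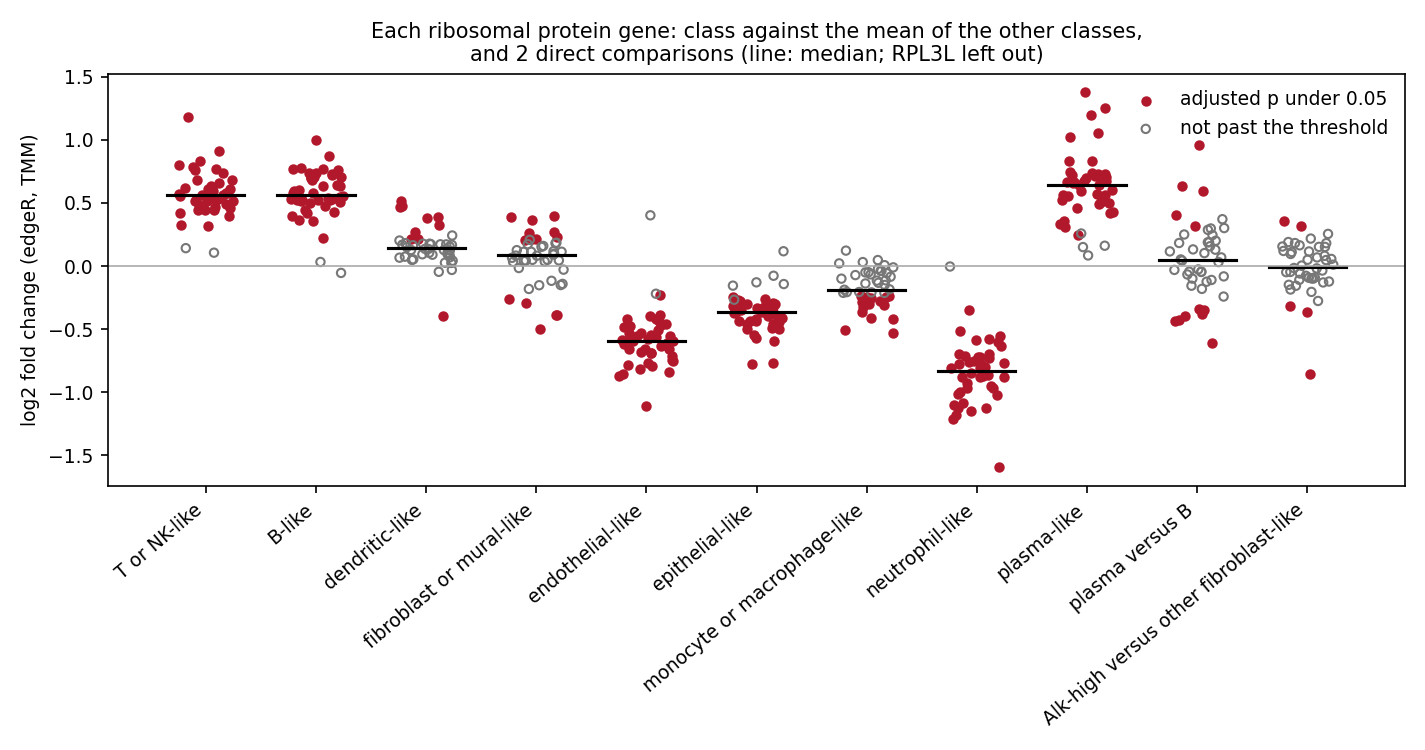
The vertical axis is the log2 fold change of each ribosomal protein gene (44 points a column, RPL3L left out), filled where the edgeR adjusted p is under 0.05, with the median as a line. With TMM scaling most members lie above 0 in T or NK-like, B-like and plasma-like cells. Most lie below 0 in endothelial-like, epithelial-like and neutrophil-like cells. Library size alone is not drawn. With it the plasma-like members were below 0 and the endothelial-like and epithelial-like medians near it.

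The members differed in how evenly they were spread over the classes. Each member's part of all ribosomal protein UMIs was computed per class, and of the 43 members with at least 10 UMIs in every animal and class the median range over classes was 0.46 in log2. The steadiest was RPL23, with a range of 0.17. RPL22L1 had the widest, 1.19. It held 1.13%, 0.802% and 1.29% of the ribosomal protein UMIs in plasma-like cells of animals 1, 2 and 3, against 0.540%, 0.442% and 0.407% in neutrophil-like cells. Here and for the members below, the pair is the member's highest and lowest class of the 9, chosen from these values.

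RPL22L1 is a paralogue of RPL22, and either can take the same place in the large subunit. There were 128 ± 44.8 RPL22L1 UMIs per 100 of RPL22 in plasma-like cells, 123 ± 21.0 in T or NK-like cells and 121 ± 36.7 in B-like cells (SD, n = 3). The ratio was 67.5 ± 8.40 in macrophage-like, 62.2 ± 7.99 in dendritic-like and 54.8 ± 9.05 in neutrophil-like cells. The myeloid classes lay below all 6 other classes in every animal, while the lymphoid, epithelial-like, endothelial-like and fibroblast-like ranges overlapped. RPL22 itself varied less within the ribosomal proteins, with a log2 range of 0.29.

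The stalk genes also had wide ranges. RPLP1, which with RPLP2 recruits elongation factors to the ribosome, held 7.99%, 6.73% and 6.10% of ribosomal protein UMIs in neutrophil-like cells, against 3.05%, 3.21% and 3.25% in endothelial-like cells. RPLP2 held 6.54%, 6.14% and 5.58% in plasma-like cells, against 3.54%, 3.04% and 3.20% in fibroblast or mural-like cells. RPLP0, the base of the stalk, held 5.38%, 4.46% and 5.82% in plasma-like cells, against 2.73%, 2.48% and 3.42% in B-like cells. The 3 stalk genes together made up 15.7% ± 1.79 of ribosomal protein UMIs in neutrophil-like cells and 15.7% ± 1.20 in plasma-like cells, against 10.5% ± 0.503 in B-like cells (SD, n = 3).

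RPL15, of the large subunit, held 0.905%, 0.611% and 0.814% of ribosomal protein UMIs in T or NK-like cells, against 0.464%, 0.346% and 0.470% in neutrophil-like cells. RPL26 and RPL34, both of the large subunit, held most in endothelial-like and least in plasma-like cells, with ranges of 0.87 and 0.79. RPS29 ranged by 0.87 between neutrophil-like and fibroblast or mural-like cells.

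**Figure D4:**
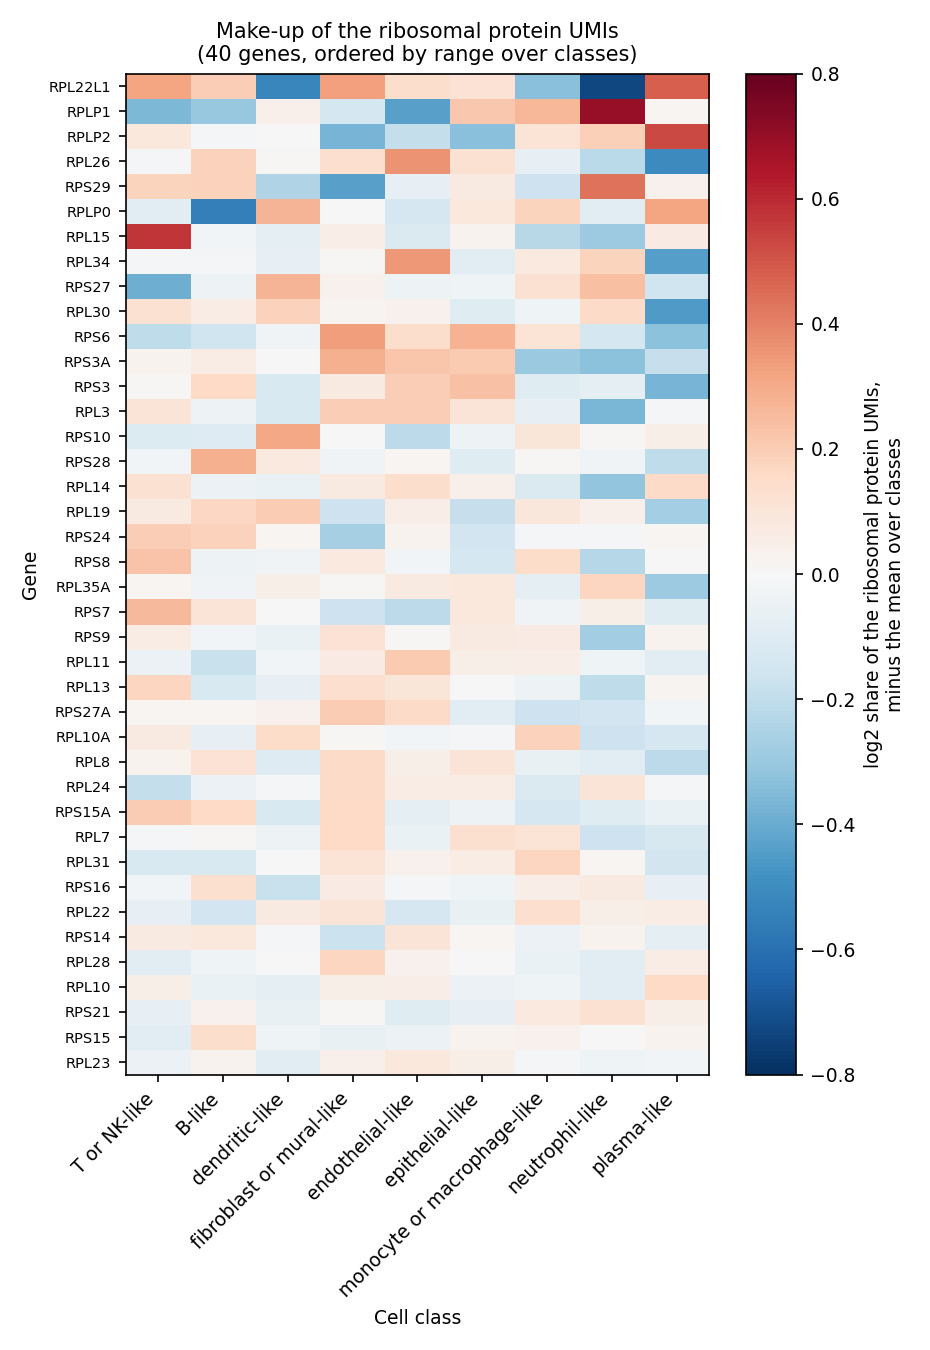
Rows are 40 of the 43 ribosomal protein genes ordered by range, columns are 9 cell classes, and the colour is the log2 share of the class's ribosomal protein UMIs minus the gene's mean over classes. RPL22L1 and RPLP2 stand out in plasma-like cells, RPLP1 in neutrophil-like cells and RPL15 in T or NK-like cells, while the lower rows are nearly even.

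Between plasma-like and B-like cells, which share a lineage, the members' median over all cells lay near that of all features. In the same fit 5 members were higher in plasma-like cells, where 16.9% of all features were higher, and 7 lower, where 14.4% were lower, with a median of 0.04 against 0.05 over all features. RPLP0 (0.96 ± 0.16, SE, edgeR adjusted p = 3.11e-05) and RPLP2 (0.63 ± 0.13) were among the highest, and RPL26 (-0.61 ± 0.11), RPS3 (-0.43 ± 0.13) and RPL30 (-0.43 ± 0.12) were lowest. The 12 calls were 4 without animal 1 and 5 without animal 2, where 2109 of 13255 and 2654 of 12760 features were called. With library size alone all 45 were lower in plasma-like cells, where 67.3% of all features were lower. Among cells of 3000 to 8000 UMIs 0 were higher and 14 of 44 lower, where 4.84% of all features were lower, and the members' median minus that of all features was -0.40, against -0.0041 over all cells. RPLP0 was not called at that depth.

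Of the fibroblast-like cells, 1740 were in a cluster with 16.7 CPM of Alk, the kinase gene of the edited inversion, led by MMP3, IGF2 and SFRP4. Another 1245 were in a cluster with 1.72 CPM, led by CCL19, A2M and FIBIN. The limit for Alk-high was 5 CPM, set from an earlier look at these data. Each group is a single cluster with its own markers. Alk level and cell type therefore cannot be told apart in the comparisons of Alk-high with other fibroblast-like cells here and below. In animals 1, 2 and 3 the ribosomal protein share was 17.2%, 19.1% and 18.0% in the Alk-high cluster, against 15.7%, 16.8% and 18.5% in the other. The groups overlapped. Of the members 2 were higher in Alk-high cells, where 22.0% of all features were higher, and 3 lower, where 21.6% were lower, with a median of 0.00 against -0.02. RPS7 (0.36 ± 0.12, SE, edgeR adjusted p = 0.0354) and RPS6 (0.32 ± 0.11) were higher, and RPLP1 (-0.86 ± 0.12), RPS3 (-0.36 ± 0.11) and RPL26 (-0.32 ± 0.11) lower. The 5 calls were 2, 1 and 2 without animals 1, 2 and 3, where 3954 of 11910, 4424 of 11862 and 4533 of 11850 features were called. With library size alone 10 members were higher and 1 lower, where 27.9% of all features were higher and 18.2% lower. RPLP1 was called in each fit that left out 1 animal, RPS7 without animal 3 and RPS3 without animal 1, while RPS6 and RPL26 were called in none of these.

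The genes that build cytosolic ribosomes and the proteins of mitochondrial ribosomes were set beside the members. Of 31 tested ribosome biogenesis factors 20 were higher in Alk-high than in other fibroblast-like cells and 0 lower, with a median of 0.47. Of all features 22.0% were higher and 21.6% lower there. The count was 11 with DESeq2 and 9 without the animal as a block. In those fits 1956 of 12192 and 1578 of 11688 features were higher. GAR1 (1.46 ± 0.12, SE, edgeR adjusted p = 4.71e-05) and NHP2 (0.91 ± 0.11), parts of the H/ACA particles that modify ribosomal RNA, were among them, with RRP12 (1.69 ± 0.45) and LYAR (0.86 ± 0.13). Of 54 mitochondrial ribosomal proteins 30 were higher and 1 lower, with a median of 0.39, and 20 were higher with DESeq2 and 10 without the block. The Alk-high cells were deeper, with medians of 19936, 19180 and 15584 UMIs in animals 1, 2 and 3, against 5702, 5524 and 4916 in the others. Among cells of 3000 to 8000 UMIs, 217 Alk-high and 729 other, where 11.6% of all features were higher and 12.7% lower, 2 of 29 biogenesis factors were higher, with a median of 0.31, and 2 of 49 mitochondrial ribosomal proteins were higher and 1 lower, with a median of 0.08.

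The other lists stand beside 22.0% of all features higher and 21.6% lower in Alk-high cells. Of 13 other TOP mRNAs 3 were higher and 2 lower, NPM1 by 1.15 ± 0.11 (SE), a nucleolar chaperone. Of 9 translation initiation factors 3 were higher, EIF2S1 by 0.92 ± 0.13, and 1 lower, EIF4A2 by -0.88 ± 0.10. Of 8 chaperones of single ribosomal proteins 3 were higher and 0 lower, GRWD1, the chaperone of RPL3, by 0.94 ± 0.14. Of 13 regulators around MYC and mTOR 3 were higher and 2 lower, MYC by -0.80 ± 0.11 and MAX by -0.94 ± 0.16, and of 8 RNA polymerase I genes 0 were higher and 2 lower (edgeR, adjusted p under 0.05). Without the block the higher and lower counts were 2 and 0 for TOP mRNAs and 2 and 1 for initiation factors. They were 1 and 1 for regulators and 0 and 1 for RNA polymerase I genes. Of 11688 features 1578 were then higher and 1773 lower.

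In T or NK-like cells, where 27.1% of all features were higher and 23.1% lower, 20 of 31 biogenesis factors were higher and 1 lower, led by DKC1 (1.29 ± 0.15, SE, edgeR adjusted p = 1.1e-07), the pseudouridine synthase of the H/ACA particles, and NOLC1 (0.87 ± 0.12). Of 13 other TOP mRNAs 9 were higher and 2 lower, with EEF1G (0.85 ± 0.09), NPM1 (0.85 ± 0.13) and EIF3F (0.83 ± 0.10) higher and VIM (-1.02 ± 0.14) lower. Of 8 RNA polymerase I genes 5 were higher and 0 lower, UBTF by 0.67 ± 0.10. Of 14 regulators 5 were higher and 0 lower, MYC by 0.76 ± 0.13. Of 9 initiation factors 5 were higher and 1 lower, of 8 chaperones 2 and 0, and of 54 mitochondrial ribosomal proteins 16 and 5. Without the block the higher counts were 14 for biogenesis factors, 7 for TOP mRNAs, 1 for RNA polymerase I genes and 2 for regulators. They were 2 for initiation factors, 0 for chaperones and 8 for mitochondrial ribosomal proteins. Of 12895 features 2665 were then higher.

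In neutrophil-like cells, where 19.2% of all features were lower and 19.3% higher, 9 of 31 biogenesis factors were lower and 1 higher, NOP10 by 1.29 ± 0.09 (SE). Of 13 other TOP mRNAs 9 were lower and 1 higher, with EEF1B2 (-1.24 ± 0.11) and EEF1G (-1.21 ± 0.11), both subunits of elongation factor 1, lower and PABPC1 (1.31 ± 0.13), the poly(A) binding protein, higher. Of 14 regulators 4 were higher and 3 lower. MXD1, a repressor that competes with MYC for MAX, was higher by 2.87 ± 0.15 (edgeR adjusted p = 1.46e-14), MYC differed by -0.82 ± 0.21, and LARP1, the binding protein of TOP mRNAs, by -1.38 ± 0.30. Of 54 mitochondrial ribosomal proteins 33 were lower and 6 higher, of 8 RNA polymerase I genes 4 and 1, of 9 initiation factors 5 and 2, and of 8 chaperones 1 and 1. Among cells of 3000 to 8000 UMIs 2 of 30 biogenesis factors were lower and 2 higher, and 7 of 51 mitochondrial ribosomal proteins were lower and 1 higher, where 7.35% of all features were lower and 10.6% higher. Without the block 6 TOP mRNAs, 1 regulator and 28 mitochondrial ribosomal proteins were lower, where 1996 of 12895 features were lower.

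In plasma-like cells, where 24.6% of all features were higher and 21.3% lower, 10 of 31 biogenesis factors were higher and 2 lower, and 30 of 54 mitochondrial ribosomal proteins were higher and 2 lower. Among cells of 3000 to 8000 UMIs these were 1 and 1 of 30, and 1 and 2 of 51. Of 9722 features 946 were then higher and 661 lower. EIF5, an initiation factor, was higher by 1.45 ± 0.10 (SE, edgeR adjusted p = 5.73e-12), one of 5 of 9 initiation factors that were higher, with 1 lower. MXI1, another competitor of MYC, was higher by 2.38 ± 0.20, one of 4 regulators that were higher, with 1 lower. Of 13 other TOP mRNAs 6 were higher and 1 lower, of 8 RNA polymerase I genes 2 and 1, and of 8 chaperones 1 and 2. Without the block the higher counts were 18 for mitochondrial ribosomal proteins, 3 for TOP mRNAs, 3 for initiation factors and 2 for regulators. Of 12895 features 2602 were then higher.

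Genes outside the list followed the summed ribosomal proteins across the 27 combinations of class and animal. Among 1583 named features with at least 50 CPM, the 10 with the highest Pearson correlation included EIF3F (0.98), PIK3C2A (0.96), EEF1G (0.94), RSL24D1 (0.94), EEF1B2 (0.93), EIF3I (0.93), EIF3K (0.93), LUC7L2 (0.92) and IDH3G (0.91). The points share libraries and depth, and the values are a description. PIK3C2A had 2926 ± 398 CPM in T or NK-like cells, above EEF1G with 1231 ± 167 (SD, n = 3). Which transcripts its feature counts was not tested. EIF3F, a subunit of initiation factor 3, had 610 ± 20.8 CPM in T or NK-like cells, 563 ± 64.3 in B-like cells, 143 ± 30.2 in plasma-like cells and 142 ± 49.6 in neutrophil-like cells (SD, n = 3). IGKC had a mean of 375820 CPM in plasma-like cells, which lowers the CPM of every other gene there. With TMM EIF3F was higher in plasma-like cells by 0.50 ± 0.10 (SE, edgeR adjusted p = 0.000267). The median log2 fold change of all features there was -0.03 with TMM and -1.78 with library size alone. The part of IGKC in the gap between these scalings was not tested. Within the list, RPS29 (0.41), RPS28 (0.63), RPS27 (0.64) and RPLP1 (0.78) followed the other members least, after RPL3L and RPL7L1, where the median member had 0.95.

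RPS27, RPS28 and RPS29, all of the small subunit, stood apart by animal. RPS29 had 7521 CPM in T or NK-like cells of animal 2, against 2529 and 2100 CPM in animals 1 and 3, and 2577 CPM in plasma-like cells of animal 2, against 739 and 434. RPS28 had 8378 CPM in T or NK-like cells of animal 2, against 2861 and 3508, and RPS27 had 5047, against 2235 and 2616. Over the 9 classes animal 2 had 3.12 to 4.39 times the mean of the other two for RPS29, 2.11 to 3.77 times for RPS28 and 1.84 to 2.74 times for RPS27. These 3 of 43 members (6.98%) were over 1.5 times higher in animal 2 in every class, as were 56 of 2467 features with at least 50 CPM (2.27%).

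RPS21 (1.25 to 2.05 times) and RPL24 (1.36 to 1.78 times) were among others higher in animal 2 in every class, though not past 1.5 times in all of them. So was RPL7L1 (1.08 to 4.47 times), which rested on few UMIs. RPS6 was 0.533 to 0.996 times and RPL13 0.552 to 0.948 times the mean of the other animals. The labels record no difference in handling between the animals, and these are values of 1 animal, with no test. Without RPS27, RPS28 and RPS29, the share of named UMIs in animals 1, 2 and 3 was 23.1%, 21.2% and 25.6% in T or NK-like cells, and animal 2 became the lowest by a wider margin.

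**Figure D5:**
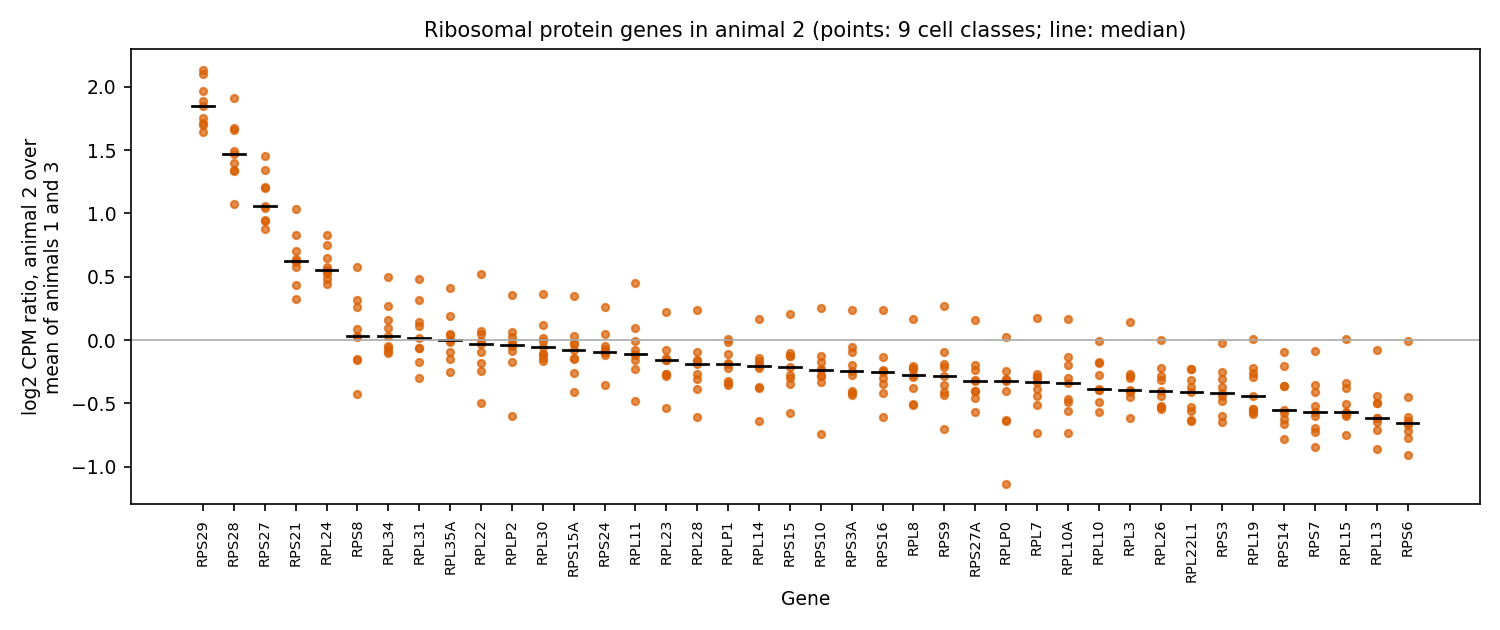
The vertical axis is the log2 ratio of CPM in animal 2 over the mean of animals 1 and 3 for 40 ribosomal protein genes, with a point per cell class and the median as a line. RPS29, RPS28 and RPS27 have the highest medians and lie above 0 in all 9 classes.

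RPL3L, the paralogue called in dendritic-like cells, rested on few molecules, with 12, 16 and 14 UMIs in dendritic-like cells of animals 1, 2 and 3 and 4.78 ± 1.32 CPM, against 1.17 ± 0.318 CPM in T or NK-like cells. There were 0.290 ± 0.00267 RPL3L UMIs per 100 of RPL3 in dendritic-like cells, against 0.203 ± 0.0709 in macrophage-like and 0.263 ± 0.253 in neutrophil-like cells (SD, n = 3), and the neutrophil-like value of animal 3, 0.505, was above those of dendritic-like cells. RPL7L1 reached 0.562 ± 0.398 per 100 of RPL7 in dendritic-like cells, with 0.377, 1.02 and 0.290 in animals 1, 2 and 3. This ratio was highest in animal 2 in every class and overlapped between the classes.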

How the data were processed

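The deposited matrices hold UMI counts per feature and barcode, not normalized, per the file headers and the values. Cell Ranger is named as 7.1.0 in the headers and 8.0.0 in the submitters' processing notes; the genome build is not given in the sources used here. Cells with at least 1000 UMIs, 500 genes and under 20% mitochondrial counts were kept. Scrublet's own threshold marked 3, 2 and 1 cells, so cells scoring at least 0.2 were removed (149, 124 and 172). The libraries shared 24, 21 and 31 barcodes in pairs.

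Cells were clustered (scanpy 1.11.5, Leiden resolution 1) without the members and named from 135 measured markers by a rule adjusted after inspection. Counts summed per animal and class were tested with edgeR 4.0.16 (R 4.3.3; TMM, filterByExpr, animal as block because the classes share the animal). Classes were drawn from the same cells, so p-values are not calibrated. Members, lists and naming rules were chosen with earlier results of these data known. Named genes were the L paralogues, the 8 highest and 4 lowest members, the 10 widest ranges, the 3 highest and 3 lowest calls around the members' median in each comparison, the 10 most correlated genes and up to 4 genes per list; some genes it picks are not reported here by name. RPL22, RPL13 and the members high in animal 2 (RPS21, RPL24, RPS27, RPS28, RPS29) were named after their values were seen. Of 134 list genes 82 had a feature.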

Additional observations from a re-analysis of the deposited data

How the results depend on the processing

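The 9 shares and the call counts were recomputed under each alternative. With all UMIs as denominator the shares were 15.8% (T or NK-like), 15.6% (B-like), 11.99% (dendritic-like), 11.7% (fibroblast or mural-like), 9.24% (endothelial-like), 9.41% (epithelial-like), 8.53% (macrophage-like), 5.44% (neutrophil-like) and 4.90% (plasma-like). Without mitochondrial genes they were 28.3% (T or NK-like and B-like), 20.1% (fibroblast or mural-like), 17.1% (endothelial-like), 16.6% (epithelial-like) and 16.5% (macrophage-like), and plasma-like cells had 20.7% without IGKC. As a mean over cells epithelial-like cells had 13.0% and plasma-like cells 10.3%. Without RPS27, RPS28 and RPS29, an alternative chosen after seeing the data, B-like cells had 22.6%, endothelial-like 14.1% and fibroblast-like 16.7%. Cells of 3000 to 8000 UMIs gave 12.6% in epithelial-like cells; a mitochondrial limit of 10% gave 18.7% in fibroblast-like and 15.6% in macrophage-like cells; resolution 2 gave 17.0% in fibroblast-like cells.

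Without the animal as replicate block fewer members were called. These were 25 higher in B-like, 2 in dendritic-like and 0 in fibroblast-like cells. In endothelial-like cells 23 were lower, in epithelial-like cells 7 and in macrophage-like cells 1. There was 1 between plasma-like and B-like cells and 1 in Alk-high cells. In T or NK-like cells 32 stayed called, in neutrophil-like cells 37 and in plasma-like cells 28. Fewer of all features were called too. Of 12895 features 1772 were higher in B-like, 2228 in dendritic-like and 3688 in fibroblast-like cells. So were 2665 in T or NK-like and 2602 in plasma-like cells. Lower were 1625 in endothelial-like, 2168 in epithelial-like, 1703 in macrophage-like and 1996 in neutrophil-like cells. Called were 3098 between plasma-like and B-like cells and 3351 of 11688 in Alk-high cells. With library size alone, chosen after seeing the data, 31 were higher in dendritic-like, 32 in fibroblast-like and 0 in plasma-like cells. Lower were 1 in endothelial-like and 2 in epithelial-like cells. In macrophage-like cells 10 were lower, where 2264 of 12895 features were lower. There were 45 calls between plasma-like and B-like cells and 11 in Alk-high cells, where 8986 of 12895 and 5617 of 12192 features were called. Cells of 3000 to 8000 UMIs gave 18 in fibroblast-like, 3 in macrophage-like and 5 in plasma-like cells. Of 9722 features 2598 were then higher in fibroblast-like, 909 lower in macrophage-like and 946 higher in plasma-like cells. A minimum of 2000 UMIs gave 4 in fibroblast-like cells, as did members kept in clustering, where 4028 of 13003 and 4276 of 12904 features were higher. The mitochondrial limit of 10% gave 4 in fibroblast-like cells, 7 in macrophage-like cells, 7 between plasma-like and B-like cells and 3 in Alk-high cells. Of 12094 features 3754 were then higher in fibroblast-like and 2247 lower in macrophage-like cells. Called were 3597 between plasma-like and B-like cells and 4638 of 11825 in Alk-high cells. DESeq2 called 36 and its size factors in edgeR 32 in macrophage-like cells, where 4445 and 3264 of 12895 features were lower. No filter on low counts gave 8 there, where 2132 of 19670 features were lower, and 3 in Alk-high cells, where 5799 of 18226 were called. Resolution 2 gave 1 in Alk-high cells, where 3151 of 10344 features were called. The cause was not tested.

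Leaving out 1 animal gave shares of 23.9% to 25.3% (T or NK-like), 23.5% to 24.8% (B-like), 17.7% to 20.04% (dendritic-like), 17.6% to 18.3% (fibroblast or mural-like), 14.9% to 15.5% (endothelial-like), 13.7% to 15.1% (epithelial-like), 13.8% to 14.9% (macrophage-like), 9.42% to 12.3% (neutrophil-like) and 7.23% to 8.83% (plasma-like). It gave 37 to 42 calls in T or NK-like, 33 to 42 in B-like, 36 to 41 in plasma-like, 41 to 42 in neutrophil-like and 32 to 39 in endothelial-like cells, 5 to 7 in dendritic-like, 10 to 38 in epithelial-like, 2 to 14 in fibroblast-like and 6 to 21 in macrophage-like cells, 4 to 13 between plasma-like and B-like cells and 1 to 2 in Alk-high cells. Of 12760 to 13255 features, 2049 to 3251 were higher in T or NK-like and 1090 to 2165 in B-like cells. So were 2166 to 2954 in plasma-like, 1735 to 2546 in dendritic-like and 3721 to 4155 in fibroblast-like cells. Lower were 1041 to 2208 in neutrophil-like, 913 to 1666 in endothelial-like, 1276 to 2308 in epithelial-like and 1518 to 2145 in macrophage-like cells. Called were 2109 to 4023 between plasma-like and B-like and 3954 to 4533 in Alk-high cells (of 11850 to 11910). The range over classes of RPS29 was 0.996 and of RPL15 1.02 as a mean over cells.

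Of 59 calls of named members 41 no longer passed the threshold without the block, 28 without animal 1, 23 without animal 2 and 6 without animal 3. Among those printed with a p, RPS28 in B-like (adjusted p = 0.0944), RPL22L1 in macrophage-like (0.0812), RPLP0 between plasma-like and B-like (0.0594) and RPS7 in Alk-high cells (0.411) were among the 41 in edgeR. Single members turned direction with library size alone: RPL11 (0.18), RPL34 (0.34) and RPS3A (0.19) in endothelial-like cells, RPL26 (0.11), RPL3 (0.0892) and RPL7 (0.12) in epithelial-like cells, RPL22L1 (-0.57), RPL35A (-1.41), RPLP2 (-0.48), RPS3 (-1.49) and RPS6 (-1.41) in plasma-like cells, and RPLP0 (-0.78) and RPLP2 (-1.11) between plasma-like and B-like cells. With cells of 3000 to 8000 UMIs RPL26 in macrophage-like cells (0.0019) and RPL35A (-0.0230), RPS3 (-0.11) and RPS6 (-0.12) in plasma-like cells did. Depth limits RPL3L and RPL7L1, which fell under 10 UMIs in some animal and class.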
